A study of Bos taurus with 18 samples.

Results

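The 150 genes described here lay at the high end of the main axis along which 18 pools of bovine blastocysts differed from each other. They were taken from 8127 genes, of 27270 listed, that had at least 10 counts in all 18 pools after a run of 40 identifiers and the 50 other genes of highest mean CPM (counts of a gene over all counts of the pool, times 1e6) were left out. The log2(CPM + 1) values of these 8127 genes were centred per gene, the first principal component (PC1) was signed so that miR-34c inhibitor replicate 1 was negative, and the 150 genes with the most positive loadings were kept. The members were therefore chosen by their levels in these pools, and the levels below are a description of that choice. PC1 held 60.4% of the variance of the 8127 genes, and 3276 of them (40.3%) had a positive loading.

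The pools came from oocytes of slaughterhouse ovaries, recovered from antral follicles of 2 to 4 mm, matured in vitro for 22 h, fertilized with bull sperm and cultured to the blastocyst stage. The maturation medium held an equal volume of water (control, Untreated in the labels, n = 4 pools), miR-34c mimics (n = 5), miR-34c inhibitors (n = 3), negative control (NC) mimics (n = 3) or NC inhibitors (n = 3). For the inhibitors the study names the maturation medium in its methods and culture media elsewhere. At 8 d post insemination (dpi), pools of 10 embryos each were collected for 5′-end mRNA sequencing. The dams behind each pool, and the production run each pool came from, are not given in the sources used here, so that p-values measure the spread between these pools, which may be technical.

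A blastocyst consists of an inner cell mass, which forms the fetus and part of its membranes, and a trophectoderm, the outer layer that forms most of the placenta. A microRNA such as miR-34c lowers its target messages by pairing with them, mostly in the 3′ UTR. A mimic is a synthetic duplex that acts as the mature microRNA, an inhibitor is a strand that binds and blocks it, and the NC molecules carry a sequence that is not that of miR-34c. The table named genes by Ensembl identifier, 0 of 37063 RefSeq gene rows carried such an identifier, and 0 of the 150 members could be given a symbol. For this reason neither the roles of the members nor blastocyst markers were analysed here, and other members are described by rank, range and count.

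The libraries held from 2063863 to 4071640 counts (median 2810350), and from 13770 to 15491 genes had a count in a library. Counts differed by more than sampling noise in all 25 pairs of pools of the same treatment (chi-square over degrees of freedom, 2.31 to 61.3). This says only that no pair differed by counting noise alone, and does not tell biological from technical differences. All 150 members had at least 10 counts in every pool by the rule, and the lowest count of a member in any pool had a median of 37 over the members.

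The 150 genes rose and fell together from pool to pool, and the pools of most treatments lay on both sides of the mean. Their summed share of all counts was 0.933% in control replicate 1 and 2.65%, 2.5% and 2.84% in control replicates 2, 3 and 4. With miR-34c mimics the share was 2.88%, 0.826%, 2.17%, 2.46% and 2.72% in replicates 1 to 5. In both groups a single pool was low and the others lay close together.

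With miR-34c inhibitors the summed share was 0.514% in replicate 1, 3.06% in replicate 2 and 1.26% in replicate 3. These 3 pools held both the lowest and the highest share of the series, a 5.95-fold range. With NC mimics the share was 2.02%, 2.13% and 1.53% in replicates 1, 2 and 3. With NC inhibitors it was 0.845%, 0.886% and 0.981%, so that all 3 NC inhibitor pools were low. In RNA from whole embryos, fewer cells of a type and less RNA per cell cannot be told apart.

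**Figure D1:**
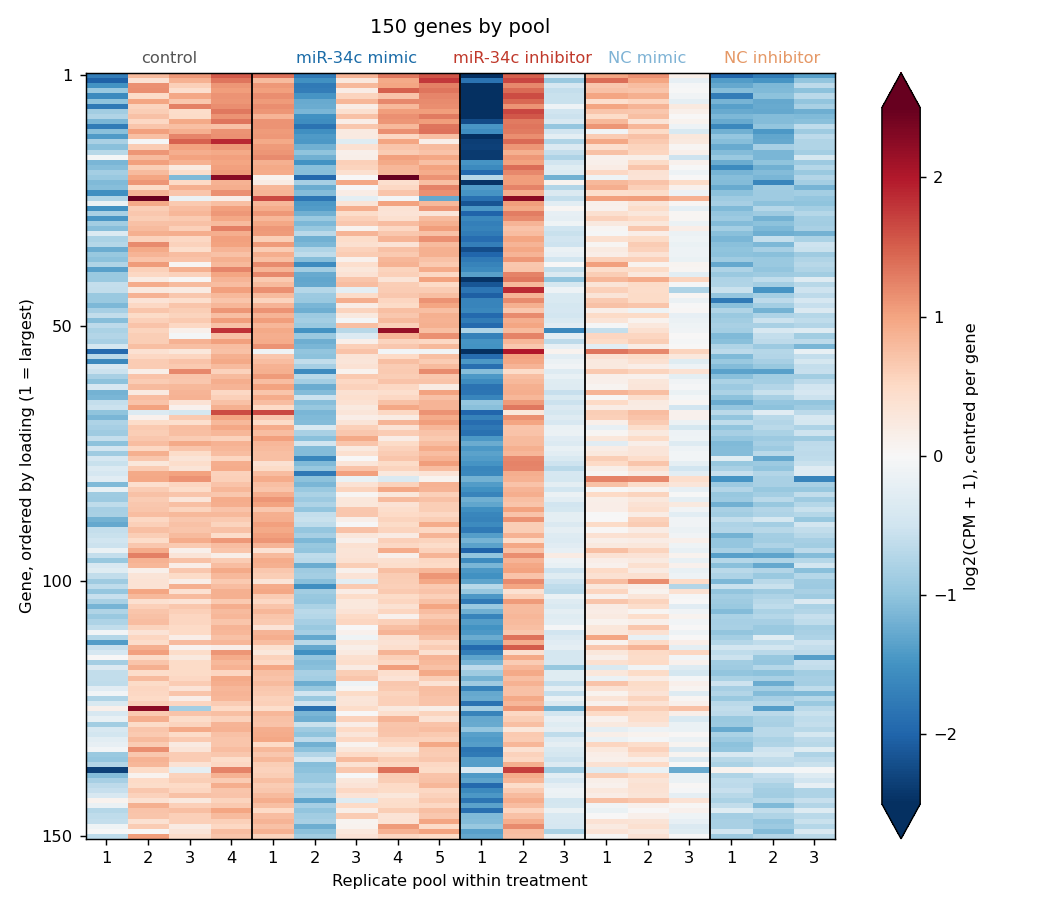
The 150 genes (rows, ordered by loading with the largest at the top) in the 18 pools (columns, grouped by treatment), coloured by log2(CPM + 1) centred per gene. Control replicate 1, mimic replicate 2, inhibitor replicate 1 and the 3 NC inhibitor pools are blue over nearly all rows, and inhibitor replicate 1 was the lowest pool in 122 of the 150 genes.

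The level of the typical member in a pool was summarised as the median over the 150 genes of the centred log2(CPM + 1) value, called the member score. Control replicates 1 to 4 had scores of -0.77, 0.67, 0.60 and 0.83. The mimic pools had 0.83, -1.02, 0.35, 0.60 and 0.76 in replicates 1 to 5. The inhibitor pools had -1.58, 0.89 and -0.36. The scores ranked the pools in nearly the same order as the summed shares.

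The NC mimic scores were 0.28, 0.43 and -0.07, and the NC inhibitor scores were -0.91, -0.85 and -0.70. By treatment the score was 0.33 ± 0.74 (SD, n = 4) in the control, 0.31 ± 0.76 (SD, n = 5) with mimics, -0.35 ± 1.23 (SD, n = 3) with inhibitors, 0.22 ± 0.26 (SD, n = 3) with NC mimics and -0.82 ± 0.11 (SD, n = 3) with NC inhibitors. The control and mimic means differed by far less than the SD of either, and the inhibitor pools spanned the range of the other 15.

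**Figure D2:**
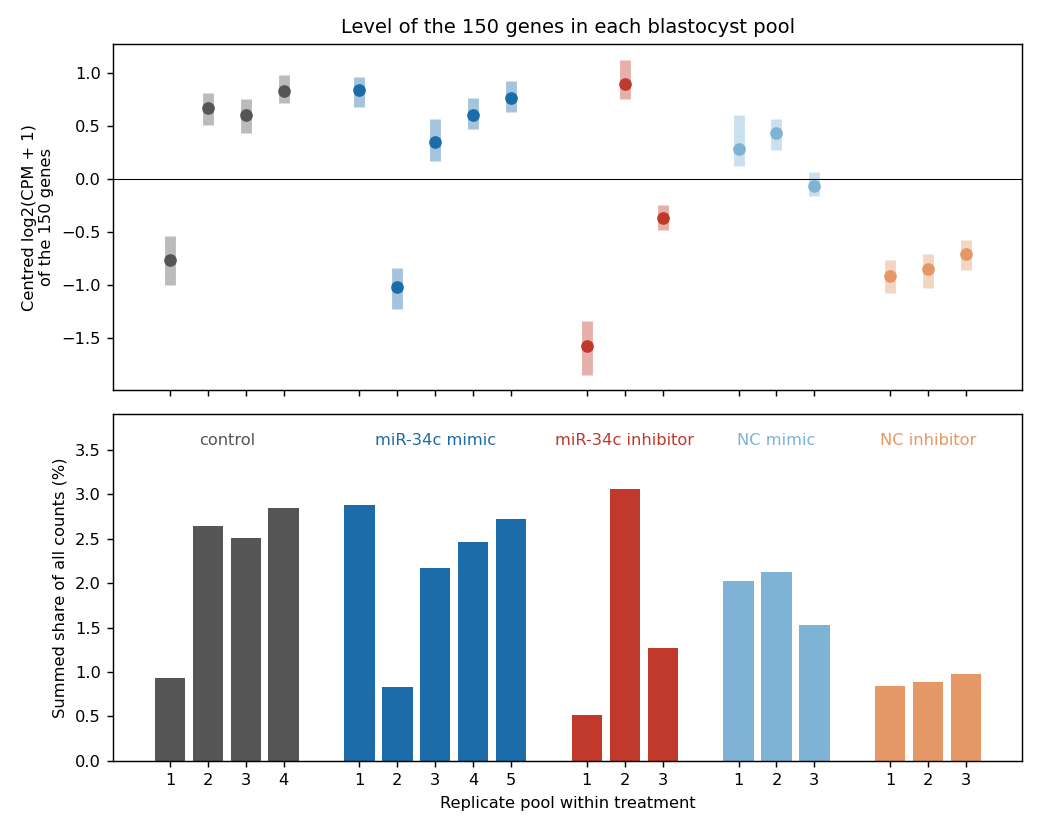
Upper panel: the median (points) and the quartiles (bars) over the 150 genes of log2(CPM + 1) centred per gene, for each replicate pool. Lower panel: the summed share of the 150 genes in all counts of the pool, in percent, from 0.514% in inhibitor replicate 1 to 3.06% in inhibitor replicate 2.

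The same order held for single genes. Inhibitor replicate 2 was above the own mean of all 150 members, as was control replicate 4, while inhibitor replicate 1, mimic replicate 2 and NC inhibitor replicates 2 and 3 were above it for 0. Control replicate 1 was above it for 3 members, inhibitor replicate 3 for 5, and NC inhibitor replicate 1 for 1. NC mimic replicates 1, 2 and 3 were above it for 133, 144 and 60 members. The highest pool of a member was inhibitor replicate 2 in 52 cases, mimic replicate 1 in 27, control replicate 4 in 21, mimic replicate 5 in 20 and control replicate 2 in 17, so that the top of the axis was shared by pools of 3 treatments. The bottom was held mainly by a single pool. The lowest pool was inhibitor replicate 1 in 122 cases, with mimic replicate 2 next in 11.

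In 4 treatments the same pool was the lowest in most members. Control replicate 1 was below the other 3 control pools in 148 of 150 members, and mimic replicate 2 was below the other 4 mimic pools in all 150. The inhibitor pools ran in the order replicate 1, replicate 3, replicate 2 from low to high in 145 members, and 134 members had at least 4-fold more CPM in replicate 2 than in replicate 1. NC mimic replicate 3 was below both other NC mimic pools in 133 members. The low pools of different treatments were not ranked so clearly among themselves. Control replicate 1 was below all 3 NC inhibitor pools in 39 members and above all 3 in 60, and mimic replicate 2 was below all 3 in 73. These counts, and those of single genes above, repeat the positions of the pools on PC1, by which the members were chosen. They were not set against the share over all genes, so they are a description only.

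The member with the largest loading was ENSBTAG00000021829, with a mean of 264 CPM over the 18 pools. It had 52.3 CPM in control replicate 1 and 304, 370.4 and 510.1 in control replicates 2, 3 and 4. The mimic pools had 456, 50.5, 315, 438 and 518 CPM in replicates 1 to 5. Control replicate 1 and mimic replicate 2 thus stood at about the same low level.

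In the inhibitor pools ENSBTAG00000021829 had 16.0 CPM in replicate 1, which is 36 counts, 495 in replicate 2 and 136 in replicate 3. The NC mimic pools had 349, 389 and 192 CPM, and the NC inhibitor pools 43.2, 51.6 and 67.7 CPM. The highest pool had 32.4 times the CPM of the lowest. The NC mimic and NC inhibitor pools did not overlap, while each of the other 3 treatments had pools at both levels.

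The next largest loading belonged to ENSBTAG00000003907, a gene of lower abundance. It had 4.22, 26.2, 37.6 and 52.2 CPM in control replicates 1 to 4 and 35.7, 6.41, 24.3, 39.7 and 70.7 CPM in mimic replicates 1 to 5. The inhibitor pools had 4.89, 65.9 and 10.1 CPM, the NC mimic pools 54.5, 40.9 and 17.2 CPM, and the NC inhibitor pools 7.01, 6.62 and 9.73 CPM. Its lowest pool was control replicate 1, with 13 counts, and inhibitor replicate 1 held 11 counts at a smaller depth. The low pools of this gene thus rest on few counts, 11 to 25 in mimic replicate 2, inhibitor replicate 1, control replicate 1 and the NC inhibitor pools.

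The 2 other members named here were those with the smallest p for NC inhibitors against the control, and they had lower loadings, at ranks 122 and 32. ENSBTAG00000018385 had 61.1, 92.3, 104 and 116 CPM in the control pools and 38.1, 29.5 and 29.2 CPM in the NC inhibitor pools. Its mimic pools had 102, 45.4, 90.2, 95.2 and 109 CPM, its inhibitor pools 25.8, 106 and 42.0 CPM, and its NC mimic pools 68.3, 81.1 and 51.4 CPM. All 3 NC inhibitor pools were below all 4 control pools, control replicate 1 included.

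ENSBTAG00000051779 had 125 CPM in control replicate 1 and 294, 297 and 297 in the other 3. It had 332, 98.7, 285, 252 and 264 CPM in the mimic pools and 46.2, 271 and 107 CPM in the inhibitor pools. The NC mimic pools had 155, 177 and 144 CPM and the NC inhibitor pools 76.3, 67.1 and 69.3 CPM. For this gene the NC mimic pools lay between the low and the high control pools without reaching either.

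**Figure D3:**
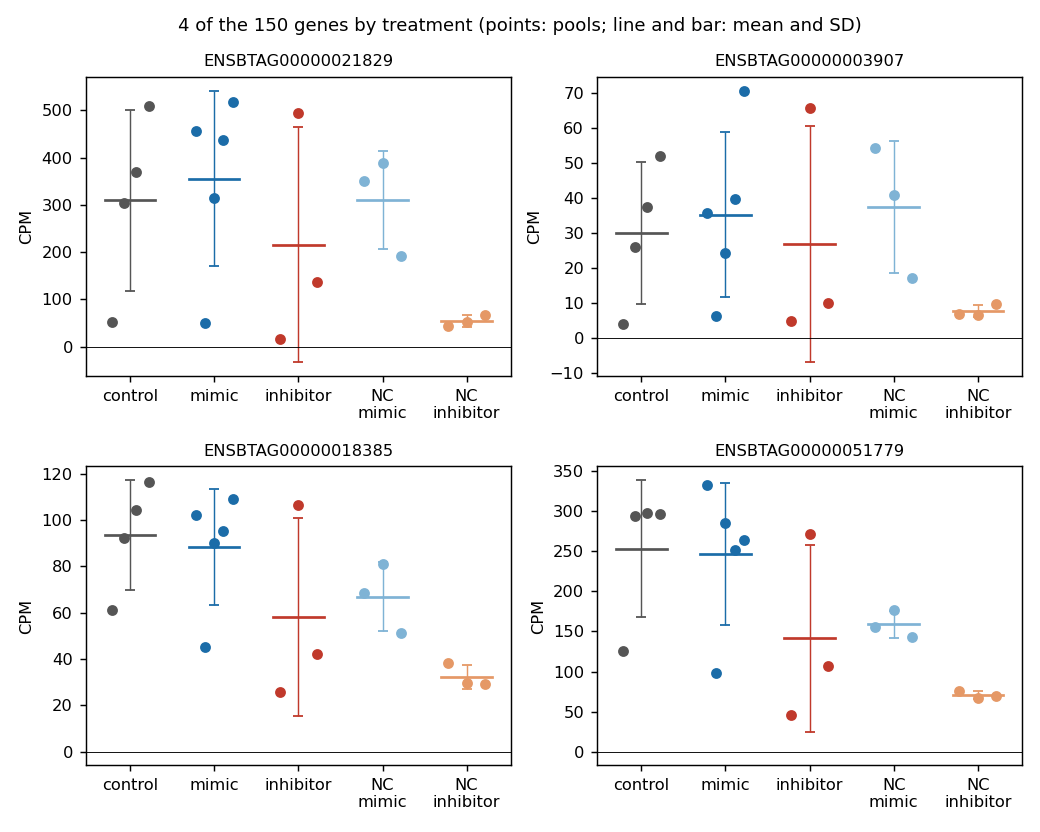
CPM of ENSBTAG00000021829, ENSBTAG00000003907, ENSBTAG00000018385 and ENSBTAG00000051779 in each pool by treatment, with points for pools and a line and bar for the mean and SD of the treatment. Control replicate 1 and mimic replicate 2 are the lowest pools of their treatments in all 4 genes, and the NC inhibitor pools are low in all 4 genes.

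Most members followed PC1 closely. The correlation of a member with the PC1 scores over the 18 pools, which the rule itself favours, had a median of 0.95 and was over 0.9 in 126 members. Among the 11175 pairs of members the median correlation was 0.92, with 5% of pairs under 0.70. These values describe genes measured in the same libraries and carry no test.

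There were 8 members with a correlation to PC1 under 0.8, with mean levels from 15.8 to 168 CPM. The member of the widest span, at rank 21, had 169 CPM in mimic replicate 4 and 101 in control replicate 4, but 8.72 in control replicate 3 and 4.36 in mimic replicate 2, a 38.8-fold range. The member of the lowest correlation (0.67, rank 125) had 66.1 CPM in control replicate 2 and 6.73 in control replicate 3. Such genes put pools apart that the other members put together.

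The steps at the ends of the axis were unequal. The highest pool of a member exceeded the next by a median of 0.08 on the log2 scale, and by at least 1 in 1 member. The lowest pool lay below the next by a median of 0.49, and by at least 1 in 18 members. The low end of the members was thus set by a single pool more often than the high end.

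The span from the lowest to the highest pool had a median of 2.67 on the log2 scale over the members, from 1.89 to 4.99. Over all 8127 genes the median was 1.36, and 13.3% spanned at least 2 against 146 of the 150 members. The variance of a member's CPM was a median of 49.1 times that expected from counting alone, against 7.47 for all genes. For the 150 genes with the most negative loadings it was 47.9, so this was not particular to the members. At an equal relative spread this ratio also grows with the mean level. Part of the contrast with all genes follows from the rule, since loadings of unscaled genes favour genes that vary most. Of the variance of a member over the 18 pools, a median of 67.2% lay within treatments, against 69.5% for all genes.

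The mean level of a member was not free of the rule either, since a gene of wide span reaches 10 counts in its lowest pool only if its mean is well above that. The members had a median of their mean levels of 71.5 CPM, with quartiles of 36.8 and 152 CPM, against 38.0 CPM with quartiles of 19.5 and 82.8 over the 8127 genes. The lowest count of a gene in any pool ran the other way, with a median of 37 for the members and 54 for all genes. There were 49 members (32.7%) above 100 CPM, against 20.6% of all. The most abundant member, at rank 87, had a mean of 1175 CPM and ran from 336 CPM in inhibitor replicate 1 to 1930 in mimic replicate 1. It made up 6.37% of the summed CPM of the members, and the 10 most abundant made up 31.4%.

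The 150 genes with the most negative loadings were less abundant, with a median of 43.2 CPM, and had about the same median span (2.68 on the log2 scale). Their summed share ran the other way, from 0.508% of counts in inhibitor replicate 2 to 2.96% in inhibitor replicate 1. The opposite directions follow from the rule.

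**Figure D4:**
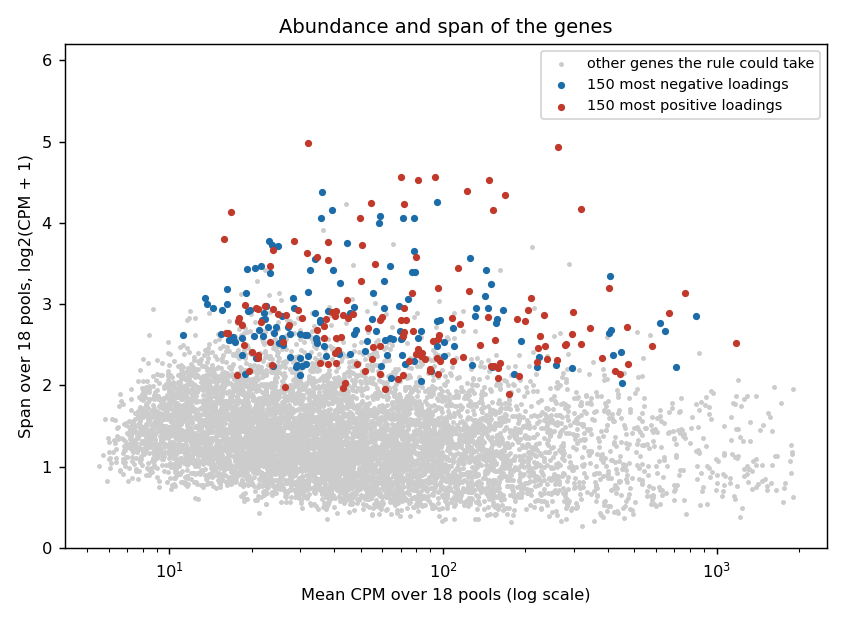
Mean CPM over the 18 pools (log axis) against the span from the lowest to the highest pool in log2(CPM + 1), for the 150 members (red), the 150 most negative loadings (blue) and the other genes of the 8127 (grey). The red points lie from 15.8 to 1175 CPM with spans from 1.89 to 4.99.

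The threshold of 150 did not fall at a gap. The last member had a loading of 0.0215, a mean of 86.3 CPM and a range of 31.6 to 162 CPM. The first gene outside had a loading of 0.0214, a mean of 254 CPM and a range of 69.8 to 431 CPM. The largest loading was 0.0482.

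The spread of the members within a treatment depended on single pools. The SD of log2(CPM + 1), here with TMM-scaled library sizes, between the control pools had a median of 0.85 over the members and 0.40 over the 11082 genes tested. Without control replicate 1 these were 0.21 and 0.24. In the mimic group the medians were 0.84 and 0.39, and without mimic replicate 2 they were 0.30 and 0.29. With these pools left out, the SD of the members was close to that of all genes. Both pools were the lowest of their treatments on PC1, by which the members were chosen. A larger fall in the members than in all genes follows in part from that choice.

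In the NC inhibitor group the SD was 0.18 for the members and 0.19 for all genes, and in the NC mimic group 0.27 and 0.22. In the inhibitor group it was 1.27 and 0.48. No single pool accounted for that spread, since leaving out replicate 1, 2 or 3 left 0.96, 0.85 and 1.76 between the remaining pools. The biological coefficient of variation that edgeR estimated over all treatments had a median of 0.457 for the members and 0.265 for all genes tested.

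The treatments were compared in edgeR's quasi-likelihood test fitted to all 11082 genes that passed its filter, in which all 150 members were tested. A gene was counted as differentially expressed (DE) at a Benjamini-Hochberg adjusted p under 0.05 and a log2 fold change of 1 or more in either direction. The rule had used the levels in all 18 pools, and its members move together, so a shift of the members between treatments repeats the position of the pools on PC1 and is not independent of it. In each comparison 0 members were DE by edgeR, and 0% of all genes.

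The largest shift of the members was that of NC inhibitors against the control. The fold changes of the members had a median of -1.55 on the log2 scale, from -2.75 to -0.51, all 150 being negative, while the median of all genes was 0.01. At an unadjusted p under 0.05 there were 140 members, all lower in NC inhibitors, where 26.7% of all genes passed and 17% passed as lower. The pools of both groups did not overlap in 64 members, all lower in NC inhibitors, against 11.5% of all genes as lower.

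In this comparison the count of DE members depended on control replicate 1 and on the tool. Without this pool, 130 members were DE in edgeR, all lower in NC inhibitors, of 1556 genes DE (14.2% of those tested, 9.32% as lower), and the median fold change of the members was -1.79. With all pools, DESeq2 gave 85 members (4.92% of all genes) and limma voom with sample quality weights, which lowers the weight of pools that stand apart, gave 148 (19.2% of all genes). An edgeR fit of the 7 pools of these groups alone gave 90 (4.94% of all genes).

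The log2 fold change of ENSBTAG00000021829 between NC inhibitors and the control was -2.75 ± 0.91 (SE, edgeR adjusted p = 0.108), and without control replicate 1 it was -3.11 ± 0.85. For ENSBTAG00000003907 it was -2.19 ± 0.90 (SE, edgeR adjusted p = 0.14). For ENSBTAG00000018385 it was -1.74 ± 0.42 (SE, edgeR adjusted p = 0.108), and for ENSBTAG00000051779 it was -2.05 ± 0.51 (SE, edgeR adjusted p = 0.108). ENSBTAG00000018385 and ENSBTAG00000051779 were picked for the smallest p in this comparison, which favours them, and all 4 were chosen from these pools, so their calls are a description. In edgeR, 0 of the 4 passed the threshold with all pools, 4 without control replicate 1 and 3 in the fit of the 7 pools alone. With any other control or NC inhibitor pool left out, 0 of the 4 passed. The same held with the replicate number as a block and with other size factors or filters. With all pools limma voom called 4 and DESeq2 called 3. ENSBTAG00000003907 was the exception in both cases with 3.

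NC mimics against NC inhibitors was compared after the pool values had been seen. The members were higher in NC mimics by a median of 1.2 on the log2 scale, with 149 of 150 positive, against 0.01 for all genes. All 3 NC mimic pools lay above all 3 NC inhibitor pools in 145 members after TMM scaling, where 23.6% of all genes lay higher in this way. At an unadjusted p under 0.05 there were 80 members, all higher in NC mimics (10.6% of all genes, 6.97% as higher). DESeq2 gave 1 DE member (0.117% of all genes) and limma voom 123 (7.09%), and an edgeR fit of the 6 pools alone gave 108 (5.44%). Leaving out 1 pool gave from 18 members at an unadjusted p under 0.05 without NC inhibitor replicate 2 (5.95% of all genes) to 78 without NC mimic replicate 3 (10.8%), with medians from 1.1 to 1.34. Both groups received NC molecules, and neither received miR-34c mimics or inhibitors.

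For miR-34c inhibitors against NC inhibitors the median fold change of the members was 0.99 on the log2 scale, with all 150 positive, against 0.03 for all genes. There were 21 members at an unadjusted p under 0.05, all higher with miR-34c inhibitors (4.06% of all genes, 3.02% as higher), and the groups did not overlap in 3 (5.29% of all genes as higher). The shift rested on inhibitor replicate 2. Without this pool the median was 0.09 and 1 member passed at an unadjusted p under 0.05 (1.46% of all genes), while without inhibitor replicate 1 the median was 1.40 and 128 passed (16.7% of all genes). Leaving out inhibitor replicate 3 gave 39 members (6.37% of all genes), and leaving out NC inhibitor replicate 1, 2 or 3 gave 6 (2.35%), 5 (2.06%) and 9 (2.36%). DESeq2 gave 0 DE members (0% of all genes) and limma voom 2 (1.39%).

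For miR-34c inhibitors against the control the median was -0.55, with 146 of 150 negative, and 3 members passed at an unadjusted p under 0.05, all lower (6.75% of all genes, 2.23% as lower). Without inhibitor replicate 2 the median was -1.41 with 139 members at an unadjusted p under 0.05 (24.2% of all genes), and without inhibitor replicate 1 it was -0.13 with 0 (2.99%). Without control replicate 1 it was -0.84 with 31 (15.9%). DESeq2 gave 0 DE members (0.0271% of all genes) and limma voom 118 (8.34%). Limma voom estimated its weights from these same pools.

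The fold changes of the members between mimics and the control lay on both sides of 0. The median fold change was -0.02 on the log2 scale, with 64 members positive and 86 negative, and 0 members passed at an unadjusted p under 0.05 (1.44% of all genes). DESeq2 and limma voom gave 0 DE members each, and 0% of all genes. The SE of a member's fold change had a median of 0.45 here. Leaving out 1 pool at a time moved the median between -0.29 without control replicate 1 and 0.19 without mimic replicate 2.

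For miR-34c mimics against NC mimics the median was 0.31, with 131 members positive and 19 negative. There were 0 members at an unadjusted p under 0.05, where 7.58% of all genes passed. Without mimic replicate 2 the median was 0.54 and 9 members passed (14.7% of all genes). All 5 mimic pools lay below all 3 NC mimic pools in 1 member (3.93% of all genes as lower). DESeq2 gave 0 DE members (0.0541% of all genes) and limma voom 3 (2.92%).

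NC mimics against the control gave a median of -0.33, with 132 members negative, and 1 member at an unadjusted p under 0.05, which was lower (8.05% of all genes, 3.51% as lower). Without control replicate 1 the median was -0.65 and 14 members passed (13.2% of all genes). DESeq2 gave 0 DE members (0.0361% of all genes), with 29 members not given an adjusted p, and limma voom 3 (2.39%).

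For miR-34c mimics against miR-34c inhibitors the median was 0.52, with 146 members positive and 0 at an unadjusted p under 0.05 (4.05% of all genes). This value moved to 1.37 without inhibitor replicate 2, with 139 members at an unadjusted p under 0.05 (22.8% of all genes), and to 0.11 without inhibitor replicate 1, with 1 (1.7%). Without mimic replicate 2 it was 0.74, with 26 (15.2%). DESeq2 gave 0 DE members (0.00902% of all genes) and limma voom 89 (7.6%).

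Whether mimics and inhibitors moved the members differently, each from its NC, was tested as an interaction in the same fit. The mimic fold change minus the inhibitor fold change had a median of -0.66 over the members, and 5 passed at an unadjusted p under 0.05, all negative (3.24% of all genes, 1.99% as negative). Without inhibitor replicate 2 the median was 0.21, with 1 member (3.28% of all genes), and without inhibitor replicate 1 it was -1.07, with 29 (5.44%). DESeq2 and limma voom gave 0 DE members each (0% and 0.532% of all genes). The comparisons above share pools with each other, so their medians are not separate pieces of evidence.

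**Figure D5:**
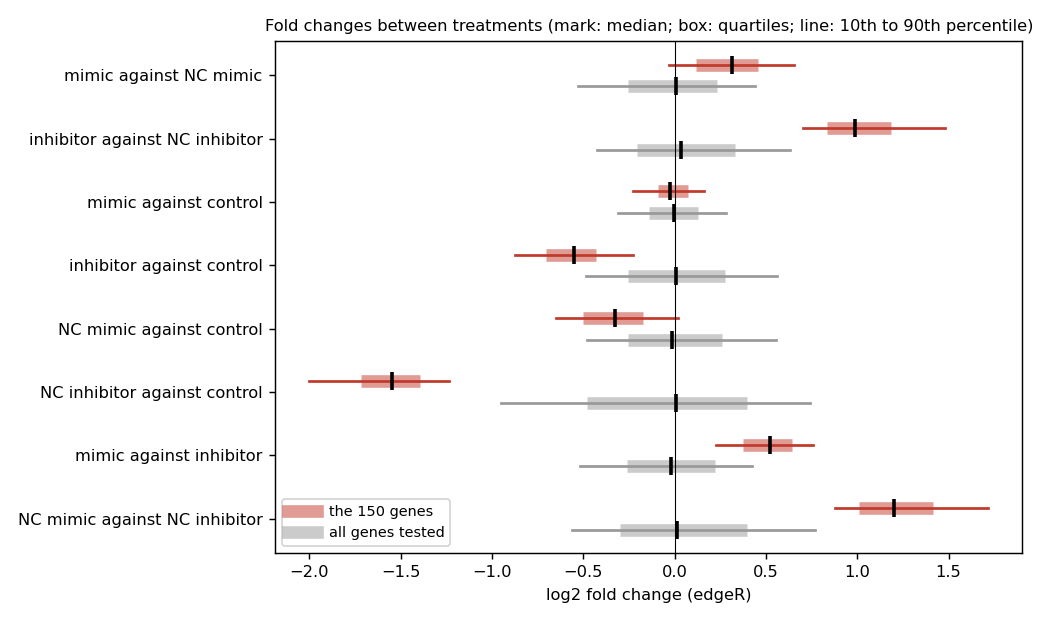
Log2 fold changes from edgeR for 8 comparisons between treatments, for the 150 genes (red) and all 11082 genes tested (grey), with a mark at the median, a box over the quartiles and a line from the 10th to the 90th percentile. The members lie lowest for NC inhibitors against the control (median -1.55) and at about 0 for mimics against the control (median -0.02).

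Other measures of the libraries moved with the members in part. The run of 40 identifiers left out by the rule took 13.5% of counts in inhibitor replicate 1, 13.2% in mimic replicate 2, 13.1% in NC inhibitor replicate 1 and 12.6% in control replicate 1, all low pools, and 6.71% in inhibitor replicate 2, the highest pool. It also took 12.2% in mimic replicate 3, whose member score was above 0, and 9.96% in NC inhibitor replicate 3, whose score was low. The 50 abundant genes left out took 13.2%, 14.2% and 14.6% of counts in NC inhibitor replicates 1, 2 and 3, 13.3% in inhibitor replicate 1, 13.5% in mimic replicate 2 and 13.7% in control replicate 1. These 6 low pools had the lowest shares of the series, and the other 12 had from 14.7% in mimic replicate 3 to 16.8% in NC mimic replicate 1. The number of genes with a count was 15322 in control replicate 1 and 15164 in mimic replicate 2, each the highest of its treatment, and 15429, 15409 and 14819 in NC inhibitor replicates 1, 2 and 3. It was 15491 in inhibitor replicate 3 and 15442 in NC mimic replicate 3, whose scores were also below 0, and from 13770 to 14844 in the 10 pools with a score above 0. Inhibitor replicate 1, the lowest pool, went against this with 14341. Library totals overlapped only in part. They ran from 2250236 to 4071640 counts in the 8 pools with a score below 0 and from 2063863 to 3197174 in the 10 others. Mimic replicate 2 (3900521), NC mimic replicate 3 (3658224), inhibitor replicate 3 and NC inhibitor replicates 1 (3564950) and 2 (3623194) exceeded all 10. Control replicate 1 (3078322), inhibitor replicate 1 and NC inhibitor replicate 3 (2568629) did not. The number of genes with a count also depends on the library total. The part of these measures in the level of the members was not tested. With every library thinned to 2063863 counts, the member score was -1.56 in inhibitor replicate 1 and 0.90 in inhibitor replicate 2. Thinning leaves the CPM of a gene unchanged on average, so scores near those at full depth were set in advance. They cannot show whether properties of a library that go with its depth play a part.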

How the data were processed

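Messenger RNA of 18 blastocyst pools of 5 treatments was analysed from 1 table. The values the authors deposited are estimated counts (RSEM) for each Ensembl gene, whole numbers without normalization. RSEM divides reads between near-identical genes, so members that have such a copy, not counted here, are uncertain. The submitters' processing notes name FastQC 0.11.9, cutadapt 3.7, STAR 2.7.10a, UMI-tools 1.1.4, RSEM 1.3.3 and the build ARS-UCD1.2, and do not give their roles. An Ensembl release is stated for the small RNA data of the study, and none for the mRNA data in the sources used here. The labels gave each pool its treatment and number. Of 27270 genes, 7840 had no count.

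The rule was applied to CPM (count over library total) in Python 3.11.15 with numpy 2.4.6. Treatments were compared in R 4.3.3 with edgeR 4.0.16 (quasi-likelihood test, TMM, filterByExpr, all 18 pools, treatment as the only term, Benjamini-Hochberg adjustment), and the SE was the log2 fold change over the root of F. The tool and thresholds are those the study used for miRNAs. Alternatives were DESeq2 1.42.0, voom (limma 3.58.1) with quality weights per sample, other size factors and filters, the replicate number as a block, and leaving out pools. The scripts were tested on simulated data. Named genes were the 2 members of largest loading and the 2 of smallest p in NC inhibitors against the control, since no symbols were paired. The members, lists and comparisons were chosen with earlier results of these data known. Planned marker and pathway lists were not analysed here for want of symbols.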

Additional observations from a re-analysis of the deposited data

Results flagged for a closer look

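Control replicate 1 and miR-34c mimic replicate 2 lay below the other pools of their treatments in most members. The size of the gap was described by the distance to the nearest pool of the treatment divided by the range of the treatment. For the member score this ratio was 0.857 for control replicate 1 and 0.739 for mimic replicate 2. It was 0.785 in ENSBTAG00000021829, 0.782 in ENSBTAG00000018385 and 0.771 in ENSBTAG00000051779 for mimic replicate 2, and 0.986 in ENSBTAG00000051779 for control replicate 1, all on the log2(CPM + 1) scale. These 6 of 12 ratios exceeded Dixon's 95% critical values of 0.829 for 4 pools and 0.71 for 5 pools, and the other 6 did not, among them both of ENSBTAG00000003907 and both of the summed share. This is a description and no test. The members were chosen by their levels in these same pools, so the rate of about 1 in 20 that chance gives does not apply to them, and the ratios repeat the position of both pools on PC1. Groups of 3 pools were not examined in this way.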

How the results depend on the processing

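With edgeR and all pools, 0 members were DE in any comparison, and 131 of 143 other combinations of comparison and setting also gave 0. Limma voom with sample quality weights gave 3 of the 150 members in mimics against NC mimics (2.92% of all genes) and 2 in inhibitors against NC inhibitors (1.39%). Against the control it gave 118 in inhibitors (8.34%), 3 in NC mimics (2.39%) and 148 in NC inhibitors (19.2%), and it gave 89 between mimics and inhibitors (7.6%) and 123 between the NC groups (7.09%). The counts of 2 and 3 were near the share over all genes. DESeq2 gave 85 between NC inhibitors and the control (4.92%) and 1 between the NC groups (0.117%), where fits of these groups alone gave 90 (4.94%) and 108 (5.44%). The cause was not tested. Leaving out 1 pool at a time gave from 0 to 130 members for NC inhibitors against the control, with 130 without control replicate 1 (14.2% of all genes), and 0 in each such fit of the other comparisons. With the replicate number as a block the count was 0 in all 9 comparisons. Deviations of same-numbered pools from their treatment means had a median correlation of -0.02 over 31 pairs, 9 of them above 0.1. The correlations ran from -0.82 to 0.65, and the production runs are not given. They therefore cannot decide whether pools of equal number were paired.

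The rule kept 117 to 149 of the 150 members when 1 pool was left out, with 117 without inhibitor replicate 1. It kept 138 with thinned libraries, 149 with TMM scaling, 149 with no gene left out for abundance and 148 with log2(CPM + 0.5). With at least 50 counts in every pool it kept 62, which were all the members that had them, and with genes scaled to unit variance 39. TMM scaling moved the scores of NC inhibitor replicates 1, 2 and 3 to -1.05, -0.98 and -0.83, and all 18 scores kept their sign under it, the other pseudocount and thinning.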
